A study of Bos taurus with 4 samples.

Results

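The 7 genes *gapdh*, *actb*, *hprt1*, *tbp*, *ywhaz*, *ppia* and *gusb*, in common use as references for quantitative PCR (qPCR), listed as GAPDH, ACTB, HPRT1, TBP, YWHAZ, PPIA and GUSB in the RefSeq gene table, were followed on microarrays of bovine muscle. Their probes were found by the reference accession printed with each probe, which was translated to a gene symbol, and 25 of the 43653 probes on the array belonged to these 7 of the 11054 genes named in this way. The array carried 8 probes for *gapdh*, 5 for *tbp*, 4 for *actb*, 3 for *ppia*, 2 each for *hprt1* and *gusb*, and 1 for *ywhaz*. The RNA came from the *semitendinosus* muscle, a hind-limb muscle, of bulls at 15 months of age, 4 of the Hereford breed (HER, beef cattle) and 4 of the Holstein-Friesian breed (HF, dairy cattle), and the labels name no treatment. Each of the 4 arrays held RNA from 1 HER and 1 HF bull, 1 labelled with Cy3 and the other with Cy5, all 4 arrays lay on 1 slide, and all had the same dye orientation, so that dye and breed cannot be told apart.

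A reference gene serves as the denominator of relative qPCR: the level of a gene of interest is divided by that of the reference to remove differences in the amount of RNA and in reverse transcription. The division returns the change of the gene of interest only where the reference itself is alike in the samples compared, so that any difference of the reference is passed with the opposite sign to every gene scaled to it. Muscle is known for very high levels of glycolytic enzymes and of actins, from which the most widely used references, *gapdh* and *actb*, are drawn. In this study *gapdh* was the only reference for the qPCR, and its protein was the loading reference for the Western blots of myostatin.

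The primers for *gapdh* and for 3 of the 7 genes scaled to it in the study are shown because the results below turn on these transcripts: *mstn*, which kept its sign with every reference, and *sirt1* and *smad2*, which did not. They are written 5′ to 3′, with the last 5 bases at the 3′ end, from which the polymerase extends, in capitals.
gapdh forward: gtttgtgatgggcgtGAACC
gapdh reverse: gtcttctgggtggcaGTGAT
mstn forward: cactggtgtggcaaGTTGT
mstn reverse: cttctgctcgctgtTCTCA
sirt1 forward: tgttgggaggacttgGTGTA
sirt1 reverse: atgttggggaaaggtCTGAG
smad2 forward: agcagaataccgaagGCAGA
smad2 reverse: tgatgggacttgattGGTGA
The *gapdh* primers were 20 bases each, with 11 G or C bases (55%), and the accession listed for them was the one printed with the 8 *gapdh* probes.

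Ratios are given as log2(Cy5/Cy3) after loess, a correction meant to remove the brightness-dependent difference between the dyes. The labels put HF in Cy5, with a remark on swapped dyes, whereas the direction of change given by the study follows only when Cy5 is HER. The breed behind a positive value is therefore not settled here, and every sign below refers to the dyes. Of the 43653 probes, 32605 were bright enough to be tested, and all 25 probes of the reference genes were among them. No spot was saturated, and the log2 ratios of any pair of arrays correlated at 0.33 to 0.62 over the tested probes. Without dye correction, the median log2 ratio of an array was above 0 on all 4 and 0.27 on the lowest, so that Cy5 was the brighter dye throughout.

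Of the 25 reference-gene probes, 3 were higher in Cy5 at an adjusted p under 0.05 and 0 were lower (limma, Benjamini-Hochberg over the 32605 tested probes). Of all tested probes, 1.97% were called higher and 1.35% lower at that adjusted p. The 3 called probes were 2 of the 8 *gapdh* probes and 1 of the 4 *actb* probes. At an unadjusted p under 0.05 (limma), 10 were higher and 0 lower, all of them probes of *gapdh*, *actb* or *tbp*. The share of all tested probes at that unadjusted p alone is not given, so that this count has no background beside it. No probe of *hprt1*, *tbp*, *ywhaz*, *ppia* or *gusb* was called. When any 1 of the 4 arrays was left out, 0 of the 25 probes were called, in a fit that called 5 to 115 of all tested probes. By the criterion of the study, an unadjusted p of at most 0.05 and a 1.3-fold change, here with the p of limma, 8 of the 25 probes passed, all higher in Cy5, against 7.96% of all tested probes in that direction. Of these, 6 were *gapdh* probes and 2 were *actb* probes. With the methods' t-test, 6 probes passed, 4 of *gapdh* and 2 of *actb*, against 5.06% of all tested probes in that direction and 8.85% in either. Of the 25 probes, 12 had 1 sign on all 4 arrays, against 32.8% of all tested probes: 11 were above 0 on all 4 arrays and 1 was below 0 on all 4, against 18.3% and 14.5%. The median log2 ratio of the 25 probes was 0.14, and that of all tested probes 0.01. The 25 probes are repeat readings of 7 genes, and 8 of them are *gapdh* probes. By the brightest probe of each gene, the median was -0.14, on the other side of 0. Of these 7 probes, 0 were called and 1 passed the criterion of the study, with the p of limma. On all 4 arrays, 2 of the 7 were above 0 and 1 was below. The median SD of the 25 probes over the arrays was 0.276, against 0.206 for all tested probes. The reference-gene probes were thus not, as a group, steadier than the array at large. Brightness was not matched in these comparisons. The 193 tested probes other than *gapdh* that were at least as bright as its dimmest probe had a median SD of 0.348. This set was chosen after the values were seen. Of the 193, 9 were called higher and 1 lower (limma), and 32 passed the criterion of the study higher in Cy5, with the p of limma.

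**Figure D1:**
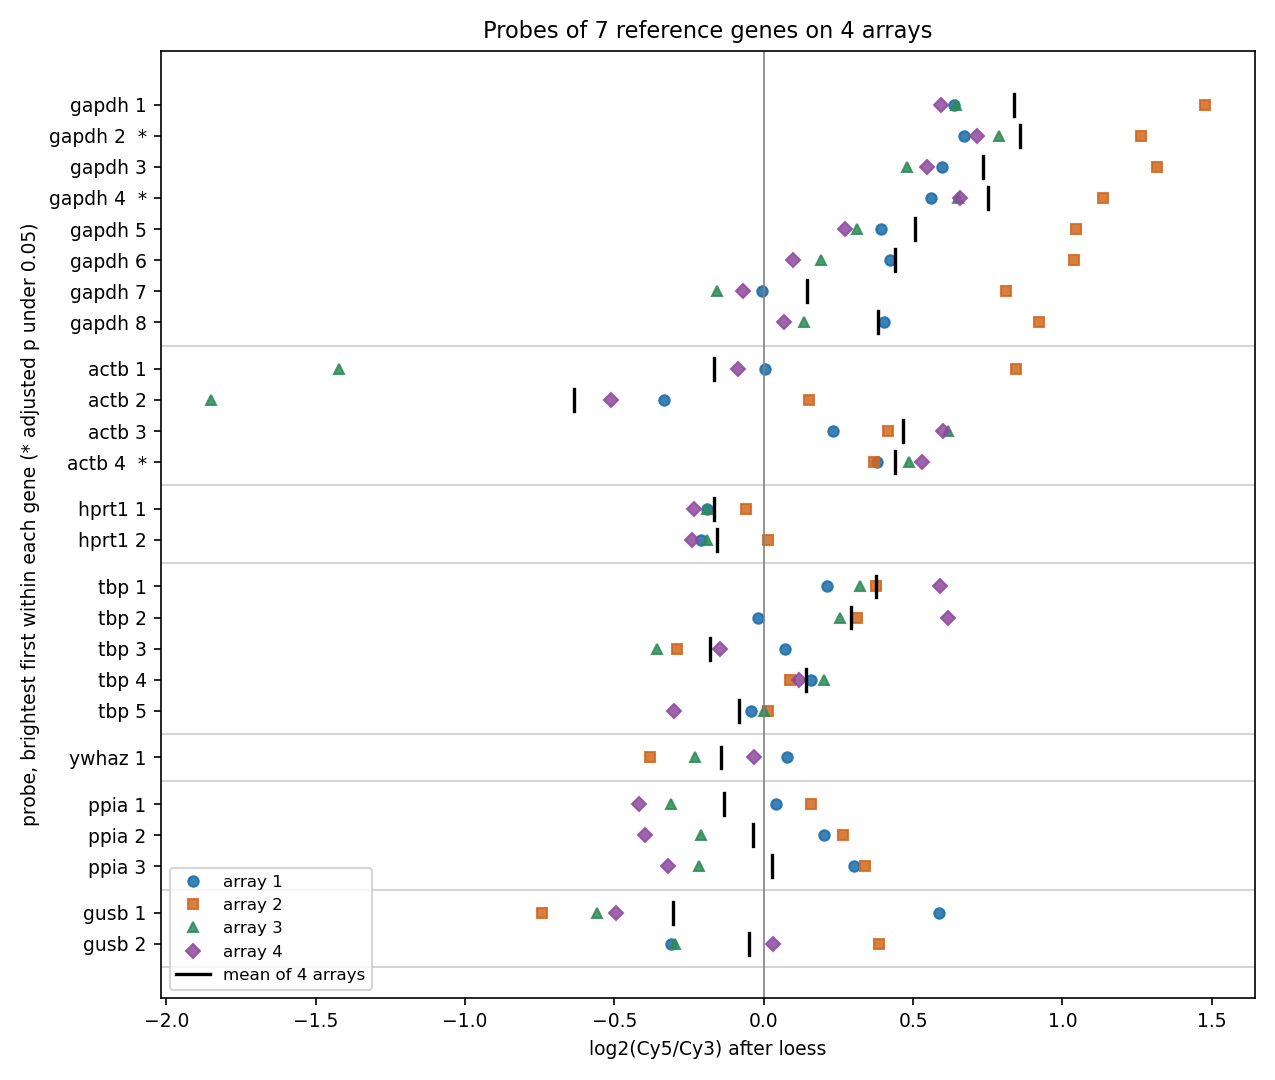
Log2(Cy5/Cy3) after loess (x axis) of each of the 25 probes (y axis, brightest first within a gene) on each of the 4 arrays, with a black bar at the mean; an asterisk marks an adjusted p under 0.05. All 8 *gapdh* means lie above 0 with array 2 highest, the 2 brightest *actb* probes lie below -1 on array 3 only, and the 2 *hprt1* probes stay between -0.24 and 0.01.

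*Gapdh* encodes glyceraldehyde-3-phosphate dehydrogenase, an enzyme of glycolysis, and its mean log2 ratio was above 0 at every one of its 8 probes, from 0.15 to 0.86. Its brightest probe (A_73_P089951), taken to represent the gene, had median signals of 433254, 526553, 483133 and 470515 in Cy5 on arrays 1 to 4, and of 71862, 46297, 137951 and 149230 in Cy3, in scanner units before any correction. After loess the log2 ratios were 0.64, 1.48, 0.64 and 0.59. The 4 values were all above 0, and array 2 stood well above the other 3, which lay close together. The mean was 0.84 ± 0.43 (SD, n = 4), a 1.79-fold difference, with an adjusted p of 0.0562 (limma), which missed the threshold. It passed in 5 of 16 alternatives: at 0.0494 with the stricter filter on dim probes, 0.0467 with an intensity trend and robust prior, 0.0167 in the separate-channel fit, 0.00694 with no dye normalization and 0.000331 with median centring (limma, adjusted p). Without array 2 it was 0.62, with an adjusted p of 0.103 (limma).

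The next brightest *gapdh* probe (A_73_100172) had log2 ratios of 0.67, 1.26, 0.79 and 0.71 and was called, with a mean of 0.86 ± 0.27 (SD, n = 4; limma, adjusted p = 0.0344). The other called probe (A_73_P475903) had 0.56, 1.14, 0.65 and 0.66, with a mean of 0.75 ± 0.26 (SD, n = 4; limma, adjusted p = 0.0405). Both probes were highest on array 2, as the brightest one was. Array 2 was in fact the highest array at all 8 *gapdh* probes, with log2 ratios of 0.81 to 1.48 there, while the other 3 arrays ran from -0.15 to 0.79. All but 1 of the 8 probes were above 0 on every array. The exception (A_73_P099681) had values of 0.00, 0.81, -0.15 and -0.07 and a mean of 0.15 ± 0.45 (SD, n = 4).

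The 8 *gapdh* probes carry the same accession but did not give the same ratio. The mean log2 ratio was larger at the brighter probes, with Pearson's r = 0.96 and Spearman's rho = 0.93 between probe brightness and ratio across 8 probes, a description over probes that share the same RNA and arrays. Without dye correction the means ran from 1.61 to 2.41, with r = 0.97. Both sets of ratios can carry a brightness-dependent difference between the dyes, and its part in the relation was not tested. Among the 193 other tested probes at least as bright as the dimmest *gapdh* probe, a set formed after the values were seen, the median log2 ratio was 0.09 after loess and 1.58 without dye correction, against 0.80 without dye correction for all tested probes. The mean over all 8 probes was 0.58 ± 0.37 (SD, n = 4; limma, adjusted p = 0.0871).

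*Actb* encodes cytoplasmic β-actin, a protein of the cytoskeleton, and its 4 probes showed 2 patterns. The brightest (A_73_P101291) had median signals of 321585, 429453, 189464 and 400673 in Cy5 and of 83203, 58591, 227469 and 202491 in Cy3. Array 3 was the only one on which this probe was brighter in Cy3. The log2 ratios were 0.00, 0.84, -1.42 and -0.09, with a mean of -0.17 ± 0.94 (SD, n = 4; limma, adjusted p = 0.812). The SD of this probe exceeded that of 98.6% of all tested probes, and without array 3 the mean was 0.25, on the other side of 0. The next probe (A_73_P099661) followed it, with -0.34, 0.15, -1.85 and -0.51.

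The 2 dimmer *actb* probes were not low on array 3. One (A_73_P471618) had log2 ratios of 0.23, 0.41, 0.62 and 0.60, with a mean of 0.47 ± 0.18 (SD, n = 4; limma, adjusted p = 0.0581). The other (A_73_102689) had 0.38, 0.37, 0.49 and 0.53, with a mean of 0.44 ± 0.08 (SD, n = 4; limma, adjusted p = 0.0454), and was the called one. Its call was lost with plain background subtraction (limma, adjusted p = 0.0925), with the trend and robust prior (0.0707) and with the scanner-processed signals (0.0845), as well as without any 1 array. Array 3 was thus the lowest array for the brighter pair, at -1.42 and -1.85, and among the higher ones for the dimmer pair, at 0.62 and 0.49. Averaged over the 4 probes, *actb* had a log2 ratio of 0.03 ± 0.41 (SD, n = 4), a mean close to 0 made of values that did not overlap on array 3.

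The same split was looked for in the other actins, after these values were seen. Actin genes are closely related, and a probe might read transcripts of more than 1 of them. *Acta1*, the actin of the skeletal muscle fibre, was below -1 on array 3 at all 4 of its probes (-1.84 to -1.11), as were both probes of *actc1*, the cardiac actin, and both of *actg2*, an actin of smooth muscle. Only 1.73% of all tested probes were that low on array 3. The 2 *actc1* probes were not low on array 3 alone: they were also at -1.70 and -1.61 on array 4, and at 1.68 and 2.15 on array 2. *Actg1*, the other cytoplasmic actin, split as *actb* did: its brightest probe was at -1.72 on array 3, and its 5 dimmer probes were above 0 on every array, between 0.30 and 0.82. All 5 were called (limma, adjusted p = 0.0324 to 0.0441). The single probe of *acta2*, the vascular smooth muscle actin, was at -0.15 on array 3. Whether the brighter *actb* probes read other actin transcripts was not tested, since the sequences of the probes were not given.

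**Figure D2:**
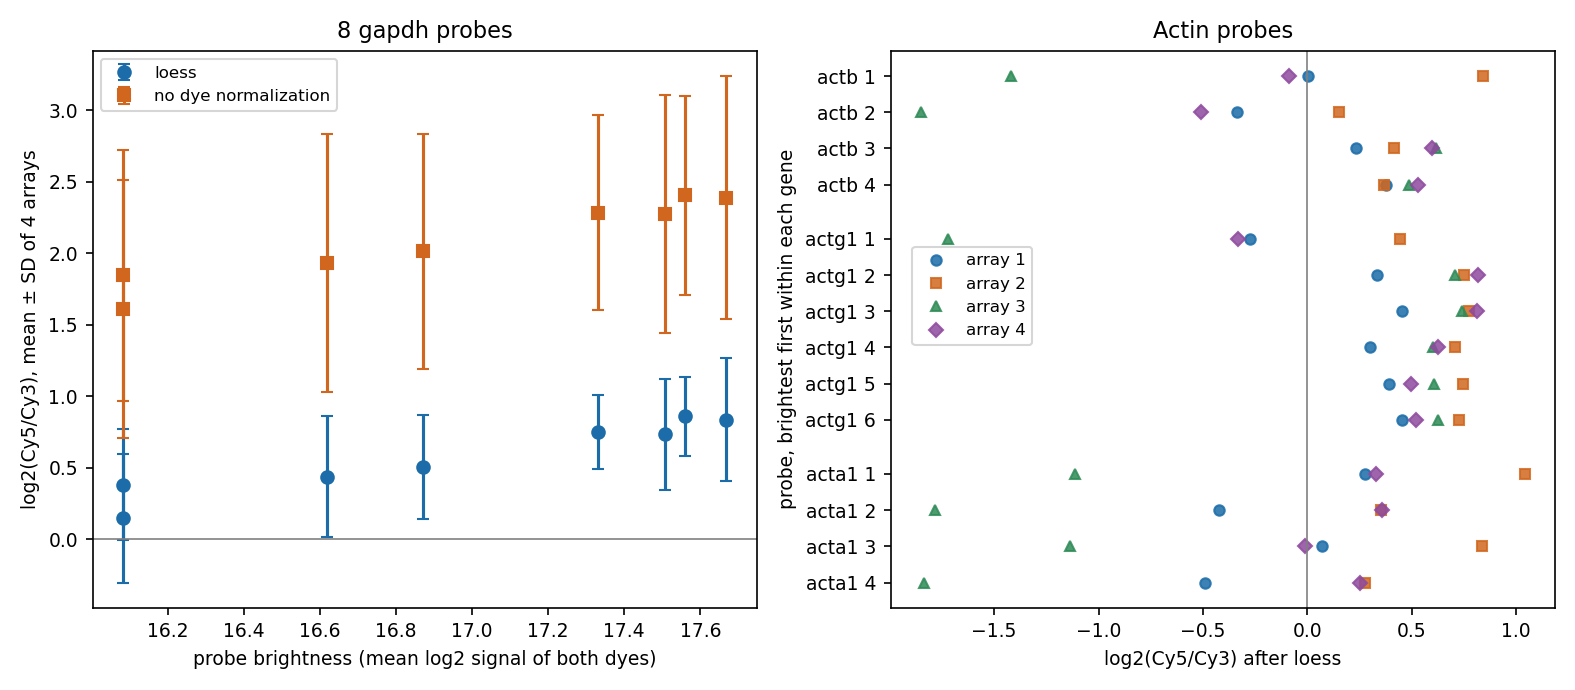
Left, mean log2(Cy5/Cy3) of the 8 *gapdh* probes with SD over 4 arrays (y axis) against probe brightness (x axis), after loess and with no dye normalization; the ratio is larger at the brighter probes in both. Right, log2(Cy5/Cy3) after loess of every *actb*, *actg1* and *acta1* probe on the 4 arrays; on array 3 the 2 brightest *actb* probes, the brightest *actg1* probe and all 4 *acta1* probes lie below -1, and the other *actb* and *actg1* probes lie above 0.

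*Hprt1* encodes hypoxanthine-guanine phosphoribosyltransferase, which recycles purine bases, and it had the smallest SD of the 7 genes, each taken by its brightest probe. Its brighter probe had median signals of 992 to 1862 in Cy5 and of 447 to 1328 in Cy3. The log2 ratios were -0.19, -0.06, -0.19 and -0.23, all below 0 and near each other. The mean was -0.17 ± 0.07 (SD, n = 4; limma, adjusted p = 0.242), and only 7.18% of all tested probes had a smaller SD. The dimmer probe gave a mean of -0.16 ± 0.12 (SD, n = 4), which differed from the first by less than the spread of either.

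*Tbp* encodes the TATA-binding protein of the transcription machinery and was measured by 5 probes. The brightest had log2 ratios of 0.21, 0.37, 0.32 and 0.59, all above 0, with a mean of 0.38 ± 0.16 (SD, n = 4; limma, adjusted p = 0.0759). It missed the threshold. The other 4 had means from -0.18 to 0.29, so that the direction depended on the probe, and the 2 dimmest had median signals of only 56 to 112 in both dyes. One of these was well above background in Cy3 on 2 of the 4 arrays. Averaged over its probes, *tbp* had a log2 ratio of 0.11 ± 0.05 (SD, n = 4).

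*Ywhaz* encodes a 14-3-3 protein, an adaptor that binds phosphorylated proteins, and had 1 probe, with median signals of 174 to 207 in Cy5 and 94 to 196 in Cy3. Its log2 ratios were 0.08, -0.38, -0.23 and -0.03, on both sides of 0. The mean of -0.14 ± 0.20 (SD, n = 4; limma, adjusted p = 0.448) was within the spread between arrays.

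*Ppia* encodes cyclophilin A, a peptidyl-prolyl isomerase that helps proteins fold. Its brightest probe had log2 ratios of 0.04, 0.16, -0.31 and -0.42, with a mean of -0.13 ± 0.28 (SD, n = 4; limma, adjusted p = 0.556). All 3 of its probes were above 0 on arrays 1 and 2 (0.04 to 0.34) and below 0 on arrays 3 and 4 (-0.42 to -0.21). The means of the 3 probes, -0.13, -0.03 and 0.03, thus stood close to 0 while each bull pair differed in the same way at every probe.

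*Gusb* encodes β-glucuronidase, a lysosomal enzyme, and its 2 probes did not follow each other. The brighter had log2 ratios of 0.59, -0.74, -0.56 and -0.49, with a mean of -0.30 ± 0.60 (SD, n = 4; limma, adjusted p = 0.468). The dimmer had -0.31, 0.39, -0.30 and 0.03, with a mean of -0.05 ± 0.33 (SD, n = 4). Its median signals were only 84 to 162 in Cy5 and 71 to 114.5 in Cy3. Those of the brighter were 682 to 1307 in Cy5 and 336 to 761 in Cy3. Arrays 1, 2 and 4 had opposite signs at the 2 probes. The SD of the brighter exceeded that of 94.3% of all tested probes.

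Dye correction moved every reference gene. With no dye normalization, the brightest probes of all 7 genes had means above 0: 2.39 for *gapdh*, 1.40 for *tbp*, 1.39 for *actb*, 1.10 for *ppia*, 0.99 for *hprt1*, 0.81 for *gusb* and 0.59 for *ywhaz*. The median of all tested probes was then 0.80, so that all but *ywhaz* stood above it, *gusb* by the smallest margin. The loess correction subtracted between 0.15 and 2.03 from the log2 ratio, depending on the array and on the brightness of the probe. *Gapdh* and *tbp* remained above 0 after it, and the 5 other genes were below 0. Without normalization 21 of the 25 probes were called higher, among 20756 of all tested probes, and with the dye-normalized signals of the scanner software 0 were. With those scanner-processed signals the means were 0.81 for *gapdh*, 0.37 for *tbp*, -0.11 for *ppia*, -0.17 for *ywhaz*, -0.20 for *actb*, -0.22 for *hprt1* and -0.32 for *gusb*, each with the sign it had after loess.

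The spread between arrays also depended on dye correction. The median SD of the 25 probes was 0.697 without it, 0.276 after loess and 0.351 with the scanner-processed signals. For all tested probes it was 0.490, 0.206 and 0.348. The array-to-array order of *gapdh* shows what was removed: without correction its brightest probe was at 2.59, 3.51, 1.81 and 1.66, and *hprt1* ran the same way, at 1.15, 1.77, 0.81 and 0.21. After loess, *hprt1* was nearly level, and of *gapdh* only the excess of array 2 was left.

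**Figure D3:**
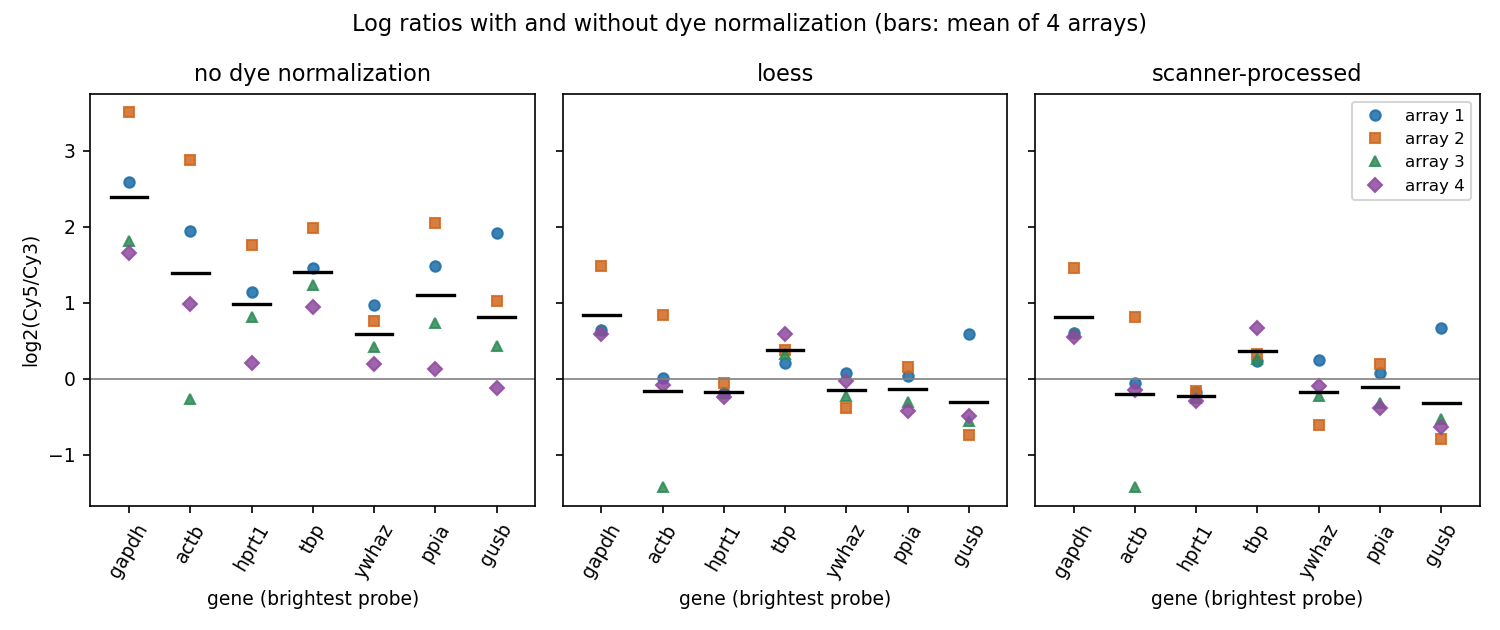
Log2(Cy5/Cy3) of the brightest probe of each gene (y axis) on the 4 arrays, with no dye normalization, after loess and as processed by the scanner software; bars are means of 4 arrays. All 7 means are above 0 on the left, from 0.59 to 2.39, and only *gapdh* and *tbp* have means above 0 in the other panels.

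A difference between the dyes that is alike at every brightness cancels when 2 genes are compared on the same array. The references were therefore set against each other in pairs. A brightness-dependent difference does not cancel: *gapdh* was above *ywhaz* by a mean of 0.98 after loess and of 1.80 with no dye normalization. Among the 21 pairs of genes, the SD over the arrays of the difference of their log2 ratios ran from 0.193 to 1.11, with a median of 0.594. The steadiest pair was *hprt1* and *tbp*, whose difference was -0.40, -0.44, -0.51 and -0.82 on the 4 arrays. *Hprt1* and *ppia* followed, with an SD of 0.22. The least steady pair was *actb* and *gusb*. *Gapdh* was above each of the 6 other genes on all 4 arrays, by a mean of 0.46 over *tbp* to 1.14 over *gusb*. The margin was only 0.004 over *tbp* on array 4 and 0.05 over *gusb* on array 1. The difference of *gapdh* from *hprt1*, for example, was 0.82, 1.54, 0.83 and 0.83, a mean of 1.01 ± 0.35 (SD, n = 4). With the scanner-processed signals *gapdh* was below *tbp* on array 4 (-0.11) and below *gusb* on array 1 (-0.06), and pairs with 1 sign on all 4 arrays numbered 6, against 9 after loess. The pair differences are given as a description, since the smallest two-sided p of an exact sign-flip test over 4 arrays is 0.125.

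Averaged over its 6 pairs, the SD was 0.43 for *hprt1*, 0.44 for *ppia*, 0.49 for *tbp*, 0.49 for *ywhaz*, 0.55 for *gapdh*, 0.73 for *gusb* and 0.90 for *actb*. Neighbours in this order lie close, except for the last 2. *Hprt1* was first and *actb* last after loess, without dye correction, with the scanner-processed signals and with the average of a gene's probes. The place of *gapdh* among the 7 moved from 3 without dye correction to 6 with the means over all probes. That last setting brought the median SD of the 21 pairs down to 0.309, from 0.594, and the value of *actb* from 0.90 to 0.38.

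**Figure D4:**
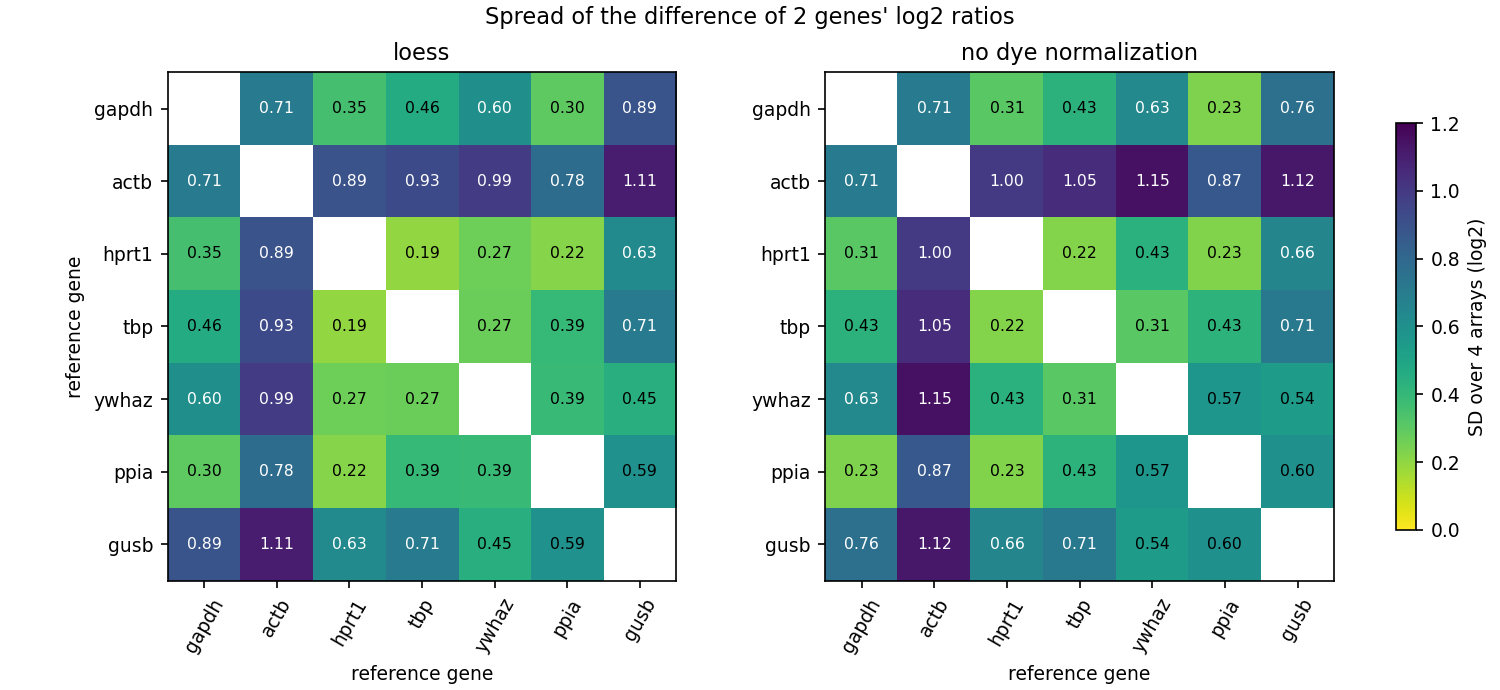
SD over 4 arrays of the difference of the log2(Cy5/Cy3) values of each pair of reference genes (colour and number), after loess and with no dye normalization. The *actb* row holds values of 0.71 to 1.11 after loess, and the lowest value is 0.19, for *hprt1* and *tbp*.

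The qPCR of the study was scaled to *gapdh*, and the same arithmetic was applied to the arrays by subtracting the *gapdh* log2 ratio on each array. The genes scaled were *fst* (follistatin, which binds and blocks myostatin), *mstn* (myostatin, which restrains muscle growth), *smad2* and *tgfb2* (a signal transducer and a ligand of the TGFβ pathway), *gsk3b* (a kinase that restrains protein synthesis), *sirt1* (a deacetylase) and *hspa8* (a constitutive heat shock protein). Of the 7, 6 were then below 0 on all 4 arrays, whereas after loess alone 4 were. The mean for *mstn* went from -1.05 ± 0.47 to -1.89 ± 0.56 relative to *gapdh* (SD, n = 4). *Gsk3b* went from -0.57 to -1.41, *hspa8* from -0.71 to -1.55 and *tgfb2* from -0.57 to -1.41, which left their signs as they were. *Fst*, the only one well above 0, went from 1.18 ± 0.51 to 0.35 ± 0.33 (SD, n = 4), and on array 3 it was at -0.01 relative to *gapdh*.

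The means of *sirt1* and *smad2* changed side, though neither gene was called after loess alone (limma, adjusted p = 0.371 and 0.769). *Sirt1* had log2 ratios of 0.23, -0.12, 0.15 and 0.50 after loess, and of -0.40, -1.60, -0.50 and -0.10 relative to *gapdh*. *Smad2* had -0.13, -0.04, 0.30 and 0.09, and relative to *gapdh* -0.76, -1.52, -0.34 and -0.50. Values on both sides of 0 thus became values below 0 on every array. For *sirt1* this did not hold on array 4 with the scanner-processed signals (0.06) or relative to the mean of the 8 *gapdh* probes (0.14), where 5 of the 7 genes were below 0 on all arrays. Relative to *hprt1*, the gene with the smallest average SD against the others, *sirt1* was at 0.42, -0.06, 0.34 and 0.73, and *smad2* at 0.06, 0.02, 0.49 and 0.33. Across the 7 possible references, each by its brightest probe, the means of both genes were below 0 with *gapdh* and *tbp* and above 0 with the 5 others. The means ran from -0.65 to 0.49 for *sirt1* and from -0.78 to 0.36 for *smad2*. Relative to *tbp*, *sirt1* was at 0.02 on array 1, and *smad2* was below 0 on all 4 arrays. The brightest *tbp* probe was at 0.38 and the mean over its probes at 0.11, beside means of 0.19 for *sirt1* and 0.06 for *smad2* after loess. Ratios relative to that mean of *tbp* were not computed.

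The means of the 5 other genes had the same sign with all 7 references, above 0 for *fst* and below 0 for *gsk3b*, *hspa8*, *mstn* and *tgfb2*. Their sizes were not the same: *mstn* was at -1.89 relative to *gapdh* and at -0.75 relative to *gusb*, and *fst* at 0.35 and 1.49. For each of the 7 genes *gapdh* gave the lowest mean and *gusb* the highest, as their own ratios require. On single arrays only *mstn* kept its sign with every reference. Relative to *actb*, *gsk3b*, *hspa8* and *tgfb2* were at 1.11, 0.78 and 1.19 on array 3. With *actb* or *gusb* as the reference, 2 of the 7 genes had 1 sign on all arrays. The same shift moves the whole array: relative to *gapdh*, the median of all tested probes was -0.83 and 1.52% of them had a mean above 0, against 52.4% after loess alone. Changes relative to that median are the ones after loess.

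**Figure D5:**
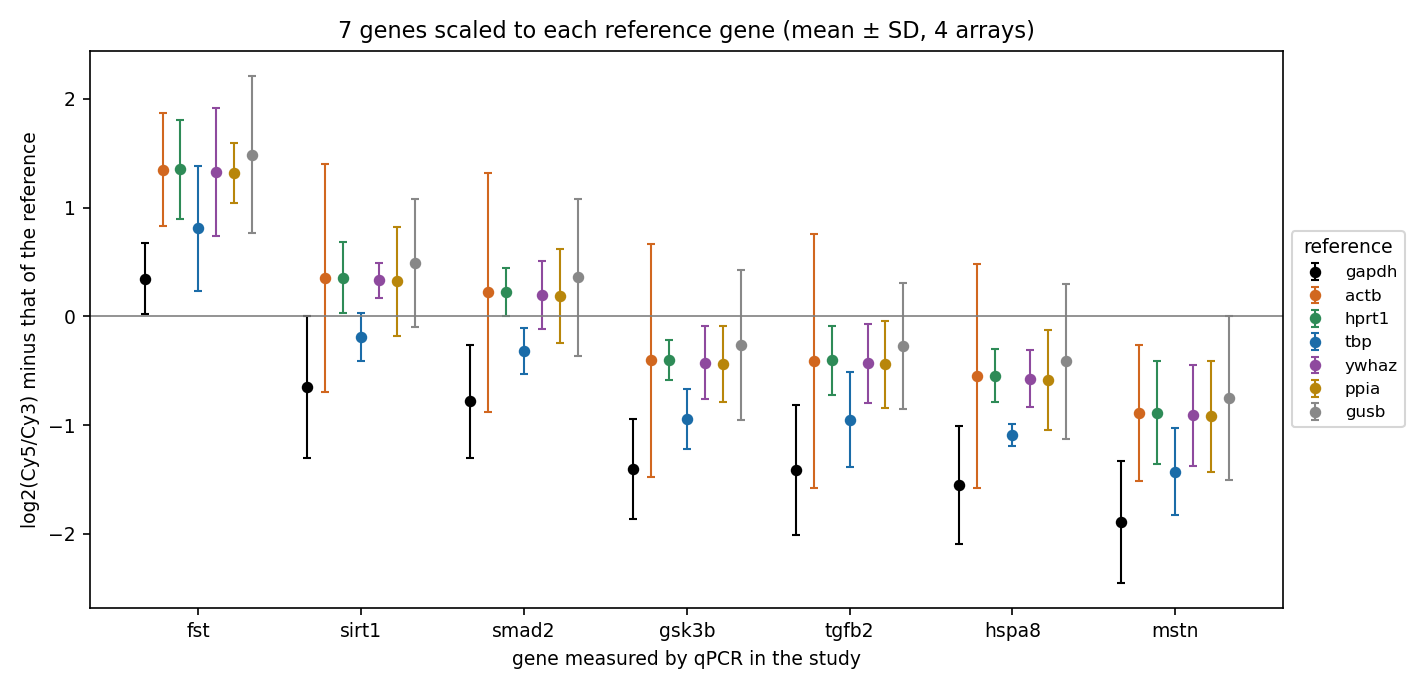
Log2(Cy5/Cy3) of the 7 qPCR genes (x axis), minus that of each of the 7 reference genes on the same array (y axis); points are means and bars SD over 4 arrays. With *gapdh* (black) every gene has its lowest value, and *sirt1* and *smad2* lie below 0 with *gapdh* and *tbp* and above 0 with the others.

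Of 35 other genes in use as references, 29 had a tested probe. By the brightest probe of each, 0 were called at an adjusted p under 0.05 (limma), against 3.32% of all tested probes in either direction. An unadjusted p under 0.05 was reached by 12 (limma), and the share of all tested probes at that p alone is not given. The count of 0 holds for the brightest probes alone, since the 5 dimmer *actg1* probes were called, as described above. The criterion of the study was passed by 6, against 14.4% of all tested probes. Their median log2 ratio was 0.03 and their median SD 0.203, near the 0.206 of all tested probes. The smallest spreads were those of *sdha*, a subunit of succinate dehydrogenase, at 0.20 ± 0.08, *rplp0* and *rps15a*, ribosomal proteins, at 0.31 ± 0.08 and -0.21 ± 0.08, and *ppib*, cyclophilin B, at 0.42 ± 0.09 (SD, n = 4). A small spread did not mean a ratio near 0: *ppib* was at 0.53, 0.36, 0.34 and 0.45 on the 4 arrays. The largest ratios were -1.09 ± 0.70 for *pgk1*, a glycolytic enzyme, 0.47 ± 0.17 for *ywhaq*, a 14-3-3 protein, -0.47 ± 0.91 for the brightest *actg1* probe and -0.46 ± 0.66 for *eef1a2*, a translation elongation factor of muscle (SD, n = 4).

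The other enzymes of glycolysis lay on both sides of 0. Of 10 listed, 8 had a tested probe, 0 were called by any probe (limma; 1 had an unadjusted p under 0.05 by its brightest probe), and their median log2 ratio was -0.06, with values from -1.09 to 0.46. The enzyme with the smallest p was *pgk1*, which follows *gapdh* in the pathway, and it lay on the other side of 0, at -1.43, -0.26, -1.85 and -0.82 (limma, adjusted p = 0.0733). *Aldoa*, aldolase A, came next, at 0.00, 0.83, 0.29 and 0.27 (limma, adjusted p = 0.207). Array 2 was the highest of the 4 for both, as it was for *gapdh*. This was not limited to glycolysis: array 2 was also highest at the brightest *actb* and *actg1* probes (0.84 and 0.45). It was not the highest at the 2 dimmer *actb* probes.

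Levels in the 8 channels, after loess and scaling between arrays, were searched for the probes most like each reference. For *gapdh* the 3 named genes with the highest Pearson's r were *bid* (0.975), an apoptosis regulator, *gapdhs* (0.974), which encodes the testis form of the same enzyme, and *rasd2* (0.970), a small GTPase. For *actb* it was *acta1* (0.976). These were followed by *mindy3* for *hprt1* (0.997), *emilin2* for *tbp* (0.989), *pde2a* for *ppia* (0.976) and *ndufa13* for *ywhaz* (0.966). Each r is the highest of 19142 probes over only 8 channels from 4 arrays, and such values describe these channels alone.

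Markers of the cell types a muscle sample can hold were read beside the references. The muscle fibre markers had a mean log2 level of 17.5 to 17.7 in Cy5 and 17.4 to 17.5 in Cy3 over the arrays, and 0 of 8 tested were called (limma; 3 had an unadjusted p under 0.05). Of 5 connective tissue markers, *col1a1* and *col3a1*, the chains of fibrillar collagens, were lower in Cy5 (-2.05 and -1.68; limma, adjusted p = 0.0290 and 0.0368). Of the 3 others, *lum* was at -0.77, *dcn* at 0.42 and *pdgfra* at 0.49, so that the list had a median of -0.77 with members on both sides of 0 (3 had an unadjusted p under 0.05). The mean level of the list was 11.3 to 12.2 in Cy5 and 12.2 to 13.0 in Cy3. Of the adipocyte, endothelial, smooth muscle, leukocyte and erythroid markers, 0 were called (limma; 2 had an unadjusted p under 0.05). In tissue RNA, fewer cells of a type and less RNA per cell cannot be told apart, and the part of the collagen difference in the ratios of the reference genes was not tested.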

How the data were processed

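RNA from *semitendinosus* muscle of 4 HER and 4 HF bulls was hybridised in pairs to 4 two-colour bovine arrays. The authors deposited scanner output (Agilent Feature Extraction 10.7.3.1) with median and processed intensity per spot and a log10 ratio of Cy5 over Cy3, and a series table of the log10 ratios, which matched the scanner column exactly on each array. Scale and direction of that table are therefore known, and the median of each of its columns is 0.

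Median signals were background-corrected (normexp, offset 50) and loess-normalized within arrays in R 4.3.3 with limma 3.58.1, with control spots at weight 0 and 7 to 14 outlier spots per array left out. Spots of a probe were averaged. Probes well above background in 1 channel on all 4 arrays, with values on at least 3, were tested two-sided against 0 (lmFit, eBayes, Benjamini-Hochberg, adjusted p under 0.05). The procedure was tested on simulated data. Having only 4 arrays limits the precision, and the labels call the arrays biological replicates, so that the p-values measure the spread between bull pairs.

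Symbols came from accessions through a RefSeq table (ARS-UCD2.0), which named 23492 probes. The arrays were annotated on Btau_3.1, and no coordinates are given. The brightest probe represents a gene, and for *gapdh* and the 7 qPCR genes the brightest under the primer accession. Named genes were the 7 references with all their probes, the 7 qPCR genes, the 4 steadiest and the 4 largest of 35 other references (37 symbols, of which 2 are older names of listed genes), the 2 glycolysis genes with the smallest p, and the probes most like each reference, of which that for *gusb* is not reported here. The members, lists and rule were chosen with earlier results of these data known. Other actins and the bright-probe set were chosen after their values were seen.

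The limma test planned on ratios relative to *gapdh* is not reported. After that shift all probes share the spread of 1 probe, the prior degrees of freedom became infinite, and the p-values would count that shared spread as if it had been estimated separately. Relative values are therefore given as mean ± SD. The alternatives were other background corrections, dye normalizations, filters and variance models, a separate-channel fit, the methods' t-test, other references, averaging a gene's probes, and dropping 1 array at a time.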

Additional observations from a re-analysis of the deposited data

Results flagged for a closer look

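In 5 of 32 sets of 4 array values that were examined, 1 array lay far from the other 3, with a gap to its neighbour past the 95% critical value of Dixon's ratio. Chance gives about 1 in 20 such sets, and the 5 sets are not independent, since all are *gapdh* probes and array 2 was the far one in each. The log2 ratio on array 2 was 1.48 at the brightest *gapdh* probe, where the next highest array was at 0.64. It was 1.31, 1.14, 1.05 and 0.81 at 4 other probes (A_73_P060776, A_73_P475903, A_73_P082516 and A_73_P099681), with the next highest array at 0.60, 0.66, 0.39 and 0.00. The cause of the high values on array 2 was not tested.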

How the results depend on the processing

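Against 3 reference-gene probes called higher after loess, 21 were called with no dye normalization, 11 with median centring (and 1 lower, a *tbp* probe), 8 with the separate-channel fit, and 0 with the scanner-processed signals, the series table, the methods' t-test (which called 0 probes in all) or any 1 array left out (lowest and highest 0). The other settings gave 2 to 4, not always the same probes: with the trend and robust prior the 3 were all *gapdh*. Over all tested probes 1083 were called, 20756 with no dye normalization, 12279 with median centring, 3210 with the separate-channel fit and 5 to 115 with an array left out. The share of calls that were higher was 59.3% after loess and 99.9% with no dye normalization. The median spread of the brightest probes was 0.276, against 0.842 with no dye normalization, 0.419 with median centring and 0.174 to 0.305 with an array left out. The median pair spread fell to 0.309 when a gene's probes were averaged.

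The side of 0 changed with no dye normalization for *actb* (1.39), *hprt1* (0.99), *ywhaz* (0.59), *ppia* (1.10), *gusb* (0.81) and, relative to *gapdh*, *fst* (-0.11). With median centring it changed for *actb* (0.59), *hprt1* (0.19), *ppia* (0.30) and *gusb* (0.014). *Actb* also changed without array 3 (-0.50 to 0.25 over the arrays left out) and with the mean over its probes (0.026). *Sirt1* and *smad2* changed when the reference was *actb* (0.35 and 0.22), *hprt1* (0.36 and 0.23), *ywhaz* (0.33 and 0.20), *ppia* (0.32 and 0.19), *gusb* (0.49 and 0.36) or the mean of the 7 (0.15 and 0.014). The cause was not tested. The calls after shifting each array to *gapdh* or to the mean of the 7 were not run as calls, for the reason given with the methods. No further paired analysis was added, because each array is 1 pair of bulls and the test of its ratio against 0 is already paired.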

Other observations

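The scanner software reported, for spiked-in control transcripts of known ratio, the log2 ratio seen where none is due: it was -1.29, -0.97, -0.85 and -0.22 on arrays 1 to 4, below 0 on each. These spots took no part in the ratios of the reference genes.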
